A study of Homo sapiens with 36 samples.

Results

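Expression of the genes that license and carry out DNA replication was followed in 2 human colorectal cancer cell lines. The set held 39 genes, picked by symbol from the 60591 rows of the mRNA count table. Each of the 39 had a row and passed the filter on low counts in every fit, which tested 16034 genes in Caco-2, 15812 in HT-29 and 17921 in both lines together. The mRNA was measured in 18 libraries, 3 in each of 6 groups formed by the line and by the treatment, and the series' design text calls the 3 biological replicates. Caco-2 cells had been kept for 21 days under conditions in which they differentiate towards enterocytes, while no such step is given for HT-29, so that the line and its culture state cannot be told apart. CoCl2 at 300 µM or an oxyquinoline derivative (OD, labelled Oxy) at 5 µM was given for 24 h, and both agents inhibit the enzymes by which cells destroy hypoxia-inducible factor (HIF) when oxygen is plentiful, and so imitate hypoxia. Control cells, labelled as untreated, received the solvent DMSO at 0.5 µl per ml, as did the OD cells. The CoCl2 stock was made in water according to the labels. The study's methods, which describe Caco-2 but not HT-29, state that the solvent was also in the CoCl2 medium. They give it as 0.5%, a higher level than that of the labels. By the stock and final concentrations of OD in the same methods, the solvent level would be that of the labels. A solvent effect in the CoCl2 comparisons was not tested. Each line is a single established line, and OD, a compound with a supplier's code, is called here by its class as the labels give it.

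Replication is prepared before S phase, when the origin recognition complex (ORC), CDC6 and CDT1 load the ring of MCM2 to MCM7 proteins on DNA, a step called licensing. At the G1/S transition, CDC45 and the GINS complex join the ring and turn it into the active helicase, polymerase alpha with its primase starts each strand, and polymerases delta and epsilon extend it while held by the clamp PCNA. E2F transcription factors, held back by RB until cyclin-dependent kinases act, switch on many of these genes together. In the intestine the genes are typical of dividing crypt cells and are turned down as enterocytes mature. The 39 genes were ordered by role: licensing (10 genes), helicase activation (6), polymerases and primase (7), clamp, clamp loader and flap processing (7), nucleotide supply (4), and G1/S control with the reader of hemimethylated DNA (5).

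Total counts per library ran from 12925719 to 22332639, and the 39 genes took from 0.143% to 0.349% of them. All 7 markers of intestinal epithelium were counted in every group. Levels are given as CPM, counts scaled to a library total that was first adjusted by TMM factors within the line. The summed level of 6 enterocyte markers was 2930 to 4523 CPM in Caco-2 libraries and 16.0 to 35.5 CPM in HT-29 libraries. Enterocyte genes were thus abundant in Caco-2 only. Within Caco-2 the sum was 2930 to 3335 CPM in Control, 3819 to 4523 CPM in CoCl2 and 3030 to 3338 CPM in OD libraries, and the part of enterocyte genes in the results below was not tested. By the GENCODE annotation, another gene overlapped 10 of the 39 on the same strand and 19 on the opposite strand, and 7 have named pseudogenes, so that some reads may be shared where the counting allowed it. Summed fibroblast markers reached 27.2 CPM and endothelial markers 12.5 CPM at most. In HT-29, the leukocyte list summed to 1082 to 1208 CPM, nearly all of it LYZ, while CD3E and PTPRC had at most 2 counts in a library. Of the hypoxia genes CA9, SLC2A1, NDRG1 and PDK1, the 3 that could be tested in Caco-2 rose by over 2-fold with either agent. In HT-29 all 4 did so with CoCl2, but with OD only CA9 and NDRG1 did, and PDK1 did not pass the test (log2 fold change -0.056 ± 0.066, FDR 0.462). In bulk RNA, a smaller share of cells in S phase and less RNA of a gene per cell cannot be told apart.

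Many replication genes are known to carry an E2F site next to the start of transcription. Promoters (250 bases before to 50 after the RefSeq start, GRCh38.p14) were found for 34 of the 39 genes. MCM4, MCM5, GINS4, POLD3 and CCNE2 had no entry, and for the 7 genes with several entries the first was used. An E2F word was counted where TTTGGCGC, TTTCCCGC, TTTGCCGC or TTTCGCGC stood on either strand, and such words can overlap each other. It was held by 20 of the 34 promoters (58.8%) and by 1164 of all 35116 promoters of that length (3.31%). Of the roles, licensing had the word in 6 of 8 promoters and nucleotide supply in 1 of 4. The CCAAT word was in 55.9% against 34.6% of all promoters, and the core word of a HIF site (ACGTG or GCGTG) was in 67.6% against 48.4%. The stretches before the start of 7 genes that the results below turn on are shown 5′ to 3′ on the gene's strand, with the E2F words in capitals and with coordinates on GRCh38.p14.
CDT1, chr16:88803728-88803787, plus strand: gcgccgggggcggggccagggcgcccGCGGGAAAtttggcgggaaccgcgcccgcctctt
MCM6, chr2:135876496-135876555, minus strand: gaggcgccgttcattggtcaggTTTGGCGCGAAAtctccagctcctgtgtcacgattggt
PCNA, chr20:5126648-5126707, minus strand: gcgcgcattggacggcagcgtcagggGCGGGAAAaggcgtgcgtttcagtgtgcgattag
TYMS, chr18:657588-657647, plus strand: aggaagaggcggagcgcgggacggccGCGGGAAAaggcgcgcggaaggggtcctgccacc
E2F1, chr20:33686386-33686431, minus strand: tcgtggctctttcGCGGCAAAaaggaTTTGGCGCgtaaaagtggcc
E2F2, chr1:23531242-23531301, minus strand: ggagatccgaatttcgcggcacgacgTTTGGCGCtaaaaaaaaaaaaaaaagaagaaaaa
UHRF1, chr19:4909461-4909500, plus strand: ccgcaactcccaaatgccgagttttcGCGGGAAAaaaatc
The 7 were taken from the promoters with the word, whereas ORC1, CDC45, RRM2 and TK1, which the results also turn on, held none in this window. In the E2F1 stretch 2 separate words were found, and in that of MCM6 a pair of words on opposite strands overlapped. A word is a match of letters and was not tested for binding.

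**Figure D1:**
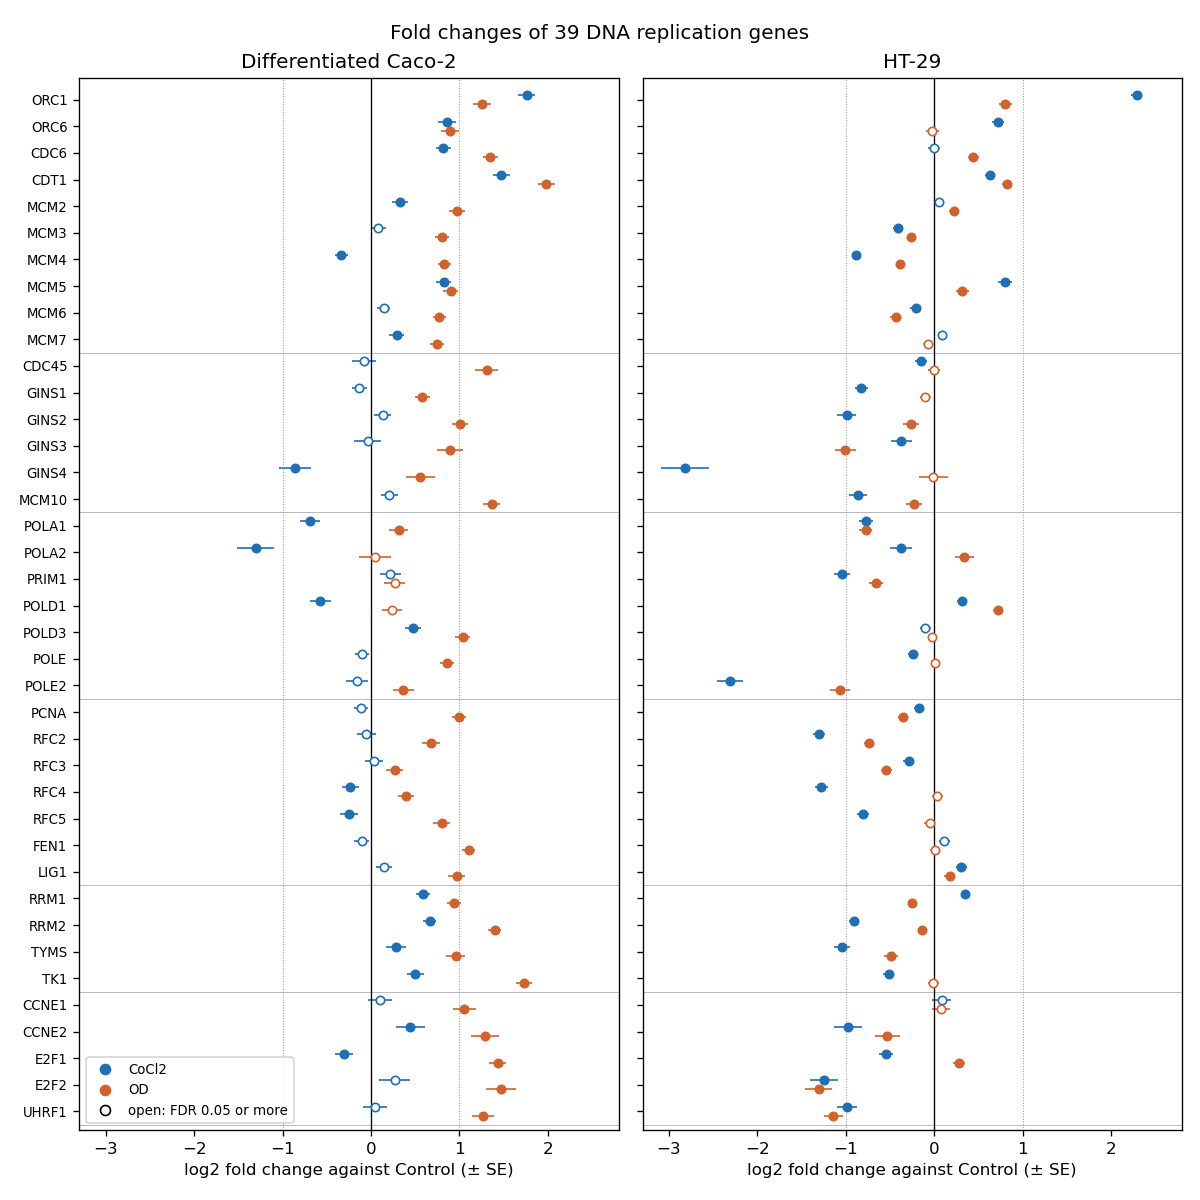
Log2 fold change against the line's Control (± SE, x axis) of the 39 genes (y axis, in role order with lines between roles) for CoCl2 (blue) and OD (orange), in differentiated Caco-2 (left) and HT-29 (right). Each value is from 3 libraries against 3, and open symbols mark an FDR of 0.05 or more. In Caco-2 all 39 OD values lie above 0, while in HT-29 26 of them lie below it, and ORC1 is the highest value with CoCl2 in both lines.

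In Caco-2, nearly all replication genes rose with OD, among them the ring loader CDT1, thymidine kinase TK1 and the regulator E2F2, whereas with CoCl2 some rose, led by ORC1, and others fell, led by POLA2 of polymerase alpha. With OD, 36 of the 39 genes rose and 0 fell in edgeR's quasi-likelihood test at a false discovery rate (FDR) under 0.05, against 25.7% and 24.7% of all genes tested in those directions. The median log2 fold change of the 39 genes was 0.94, with a range from 0.047 to 1.98, beside -0.023 for all genes. The rise was over 2-fold for 15 genes, against 4.43% of all genes, and 0 genes fell by as much, against 7.27%. With CoCl2 in the same line, 13 genes rose and 8 fell, against 31.6% and 33.1% of all genes, and the median was 0.10 beside -0.029 for all genes. The share of the 39 that rose with CoCl2 was thus near that of all genes. Of these, 2 rose by over 2-fold (ORC1 and CDT1) and 1 fell by as much (POLA2), against 9.13% and 14.2% of all genes. The CoCl2 median was negative, at -0.22, when libraries were scaled by their size only, a scaling that lowered the median of all genes by 0.32, and the OD median stayed positive at 0.78. The rises over 2-fold with OD then numbered 11, against 3.12% of all genes. Under that scaling CCNE2, MCM2, MCM7, POLD3, TK1 and TYMS no longer passed with CoCl2, nor POLA1, POLE2 and RFC3 with OD, while MCM3, MCM6, CDC45, GINS1, GINS3, POLE, POLE2, PCNA, RFC2, RFC3 and FEN1 newly passed as lower with CoCl2, which made 19 falls and 7 rises against 50% and 18% of all genes. CoCl2 set directly against OD gave 1 higher gene and 35 lower genes, against 24.4% and 25.2% of all genes, with 0 and 13 over 2-fold against 5.21% and 6.44%, and a median of -0.81. None of the 39 values was below 0 with OD, and none was above 1 in CoCl2 less OD, so that the counts of 0 hold at any p. The 3 Caco-2 comparisons share libraries and are given side by side.

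Among the licensing genes of Caco-2, all 10 rose with OD, by 0.74 to 1.98 on the log2 scale, against 25.7% of all genes. With CoCl2 7 rose and 1 fell, against 31.6% and 33.1% of all genes. ORC1, the largest ORC subunit and the one whose amount follows the cell cycle in many cell types, stood at 11.1, 12.01 and 12.4 CPM in the Control libraries, 39.7, 39.1 and 41.00 CPM in the CoCl2 libraries and 29.3, 27.4 and 28.01 CPM in the OD libraries. Its log2 fold changes were 1.76 ± 0.10 (FDR 1.80e-13) for CoCl2 and 1.26 ± 0.10 (FDR 3.50e-10) for OD. No library of a group overlapped another, and CoCl2 was above OD (log2 difference 0.50 ± 0.093, FDR 8.54e-05), the single gene of the 39 for which that order passed the test. CDT1, the loader of the MCM ring, stood at 25.4, 22.9 and 24.3 CPM in the Control libraries, 77.7, 62.3 and 62.6 CPM in the CoCl2 libraries and 89.6, 96.2 and 102 CPM in the OD libraries. CDT1 rose by 1.47 ± 0.10 (FDR 2.21e-12) for CoCl2 and 1.98 ± 0.10 (FDR 2.19e-14) for OD, and the OD libraries were above all CoCl2 libraries (CoCl2 less OD -0.51 ± 0.089, FDR 4.30e-05). CDC6, the ATPase that works beside CDT1, stood at 36.1, 33.3 and 33.2 CPM in the Control libraries, 64.1, 60.8 and 56.6 CPM in the CoCl2 libraries and 87.7, 89.1 and 84.6 CPM in the OD libraries. It rose by 0.82 ± 0.083 (FDR 5.66e-09) for CoCl2 and 1.35 ± 0.082 (FDR 1.69e-12) for OD, and again the groups did not overlap. ORC6, another ORC subunit, was at 18.6, 18.3 and 19.5 CPM in the Control libraries, 31.2, 38.00 and 33.1 CPM in the CoCl2 libraries and 38.7, 33.8 and 32.2 CPM in the OD libraries. ORC6 rose by 0.86 ± 0.10 (FDR 1.32e-07) for CoCl2 and 0.89 ± 0.10 (FDR 1.62e-07) for OD, and the CoCl2 and OD libraries overlapped (difference -0.032 ± 0.10, FDR 0.813).

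Of the MCM ring itself, all 6 subunits rose with OD in Caco-2, against 25.7% of all genes, within a narrow range of 0.74 to 0.97 on the log2 scale. Summed over the 6 genes, the level was 580.2 to 609.5 CPM in Control, 636 to 718 CPM in CoCl2 and 1008 to 1098 CPM in OD libraries. MCM2 was measured at 50.99, 52.7 and 54.1 CPM in the Control libraries, 73.99, 63.1 and 61.7 CPM in the CoCl2 libraries and 94.8, 99.4 and 115 CPM in the OD libraries. The change was 0.33 ± 0.09 (FDR 0.00248) for CoCl2 and 0.97 ± 0.089 (FDR 2.74e-09) for OD, and the groups did not overlap. The subunits were less alike with CoCl2, where MCM5 rose (0.82 ± 0.084, FDR 7.17e-09), MCM2 and MCM7 rose by less (0.29 ± 0.082, FDR 0.00352 for MCM7, whose sign turned to -0.030 with scaling by library size only), MCM4 fell (-0.34 ± 0.074, FDR 3.49e-04), and MCM3 and MCM6 did not pass the test (log2 0.084 and 0.14).

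All 6 genes of helicase activation rose with OD in Caco-2, against 25.7% of all genes. With CoCl2 GINS4 fell and the other 5 did not pass the test, while 33.1% of all genes fell. CDC45, which joins the MCM ring as the GINS complex does, stood at 11.4, 14.3 and 12.1 CPM in the Control libraries, 13.2, 13.3 and 9.57 CPM in the CoCl2 libraries and 28.6, 32.2 and 32.6 CPM in the OD libraries. Its values were -0.079 ± 0.14 (FDR 0.628) for CoCl2 and 1.31 ± 0.13 (FDR 8.16e-09) for OD, so that every OD library was over the highest of the other 6, and the Control and CoCl2 libraries overlapped. GINS4, a subunit of GINS with few counts here, was at 7.51, 6.17 and 6.44 CPM in the Control libraries, 4.08, 3.63 and 3.46 CPM in the CoCl2 libraries and 10.8, 7.81 and 11.2 CPM in the OD libraries. The log2 changes of GINS4 were -0.86 ± 0.18 (FDR 2.55e-04) for CoCl2 and 0.56 ± 0.16 (FDR 0.00628) for OD, which put CoCl2 below and OD above all Control libraries. MCM10, needed for the start of unwinding, rose with OD (1.37 ± 0.094, FDR 1.75e-11) as did GINS2 (1.01 ± 0.091, FDR 2.37e-09), and GINS1 (0.58) and GINS3 (0.89) rose by less.

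Polymerases and primase changed least with OD in Caco-2: 4 of 7 rose, against 25.7% of all genes, with a median log2 fold change of 0.31. POLA2, POLD1 and PRIM1 did not pass the test with OD. POLA2, the second subunit of polymerase alpha, was at 6.05, 6.57 and 6.72 CPM in the Control libraries, 2.17, 3.27 and 2.38 CPM in the CoCl2 libraries and 8.34, 6.25 and 5.36 CPM in the OD libraries. It gave -1.30 ± 0.21 (FDR 7.50e-06) for CoCl2 and 0.047 ± 0.18 (FDR 0.847) for OD, so that CoCl2 lay below all other libraries while OD and Control overlapped. POLA1, the catalytic subunit beside it, was at 23.9, 25.8 and 27.1 CPM in the Control libraries, 14.7, 17.5 and 15.3 CPM in the CoCl2 libraries and 29.7, 35.4 and 29.9 CPM in the OD libraries. Its log2 changes were -0.69 ± 0.11 (FDR 8.42e-06) for CoCl2 and 0.31 ± 0.11 (FDR 0.0161) for OD, a fall with CoCl2 and a smaller rise with OD. POLD1, the catalytic subunit of polymerase delta, was at 33.01, 37.7 and 36.1 CPM in the Control libraries, 26.7, 21.5 and 23.6 CPM in the CoCl2 libraries and 33.6, 41.9 and 50.2 CPM in the OD libraries. That is -0.57 ± 0.12 (FDR 2.13e-04) for CoCl2 and 0.24 ± 0.12 (FDR 0.0926) for OD, and the OD libraries reached from within the Control range to well over it. PRIM1, the catalytic primase subunit, was at 12.8, 12.1 and 12.9 CPM in the Control libraries, 13.2, 13.7 and 16.7 CPM in the CoCl2 libraries and 14.9, 15.2 and 15.2 CPM in the OD libraries and gave 0.22 ± 0.12 (FDR 0.12) for CoCl2 and 0.27 ± 0.12 (FDR 0.0714) for OD, neither past the test. In contrast, the delta subunit POLD3 (1.04 ± 0.086, FDR 5.03e-10) and POLE, the catalytic subunit of polymerase epsilon (0.86 ± 0.077, FDR 2.07e-09), rose with OD, as did POLE2 by less (0.37), and of these POLD3 also rose with CoCl2 (0.48 ± 0.087, FDR 4.10e-05).

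The clamp, the loader genes RFC2 to RFC5 and the enzymes that join Okazaki fragments all rose with OD in Caco-2 (7 of 7, median log2 fold change 0.80), against 25.7% of all genes. PCNA, the sliding clamp and the most abundant of the 39 genes per length, was at 107, 112 and 110.3 CPM in the Control libraries, 89.9, 104 and 109 CPM in the CoCl2 libraries and 235, 216 and 203 CPM in the OD libraries. PCNA changed by -0.12 ± 0.081 (FDR 0.211) for CoCl2 and 0.99 ± 0.08 (FDR 3.44e-10) for OD, and every OD library stood well above the Control and CoCl2 libraries, which overlapped. FEN1, the flap endonuclease, rose with OD (1.10 ± 0.078, FDR 3.18e-11), and so did LIG1, the ligase (0.97 ± 0.094, FDR 7.76e-09). The clamp loader genes RFC2, RFC4 and RFC5 rose by 0.68, 0.39 and 0.80, and RFC3 by 0.27. With CoCl2, RFC4 (-0.23 ± 0.093, FDR 0.0314) and RFC5 (-0.25 ± 0.10, FDR 0.0301) fell slightly and the other 5 genes of the group did not pass the test.

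Genes of nucleotide supply rose with both agents in Caco-2, 4 of 4 in each case, against 31.6% (CoCl2) and 25.7% (OD) of all genes. RRM2, the regulatory subunit of ribonucleotide reductase, was at 113, 116 and 121 CPM in the Control libraries, 169.5, 188 and 197 CPM in the CoCl2 libraries and 312, 296 and 315 CPM in the OD libraries. RRM2 rose by 0.67 ± 0.074 (FDR 3.16e-08) for CoCl2 and 1.40 ± 0.075 (FDR 1.46e-13) for OD, with no overlap between the groups. TK1, thymidine kinase of the cytosol, was at 40.05, 45.5 and 46.9 CPM in the Control libraries, 68.99, 63.9 and 54.8 CPM in the CoCl2 libraries and 137, 144 and 158 CPM in the OD libraries. It rose by 0.50 ± 0.093 (FDR 5.23e-05) for CoCl2 and 1.73 ± 0.092 (FDR 1.33e-13) for OD, the second highest value of the 39 genes with OD. The CoCl2 rise of TK1 did not pass when libraries were scaled by size only (0.18). TYMS, thymidylate synthase, was at 28.8, 27.4 and 26.03 CPM in the Control libraries, 37.00, 32.99 and 30.1 CPM in the CoCl2 libraries and 63.8, 48.6 and 47.5 CPM in the OD libraries. The rise of TYMS was 0.28 ± 0.11 (FDR 0.0326) for CoCl2 and 0.96 ± 0.11 (FDR 1.01e-07) for OD, and with CoCl2 it turned to -0.042 when libraries were scaled by size only. RRM1, the large subunit beside RRM2, rose by 0.59 ± 0.083 (FDR 1.26e-06) for CoCl2 and 0.94 ± 0.083 (FDR 1.53e-09) for OD.

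The 5 genes of G1/S control and hemimethylated DNA all rose by over 2-fold with OD in Caco-2, against 4.43% of all genes. CCNE1 did so by a small margin. Its OD value was 0.90 when libraries were scaled by size only and 0.99 without OD replicate 1. With CoCl2 CCNE2 rose, E2F1 fell and 3 did not pass the test, while 31.6% of all genes rose and 33.1% fell. E2F1, an activator of the replication genes, was at 42.4, 43.8 and 40.9 CPM in the Control libraries, 40.4, 34.6 and 28.6 CPM in the CoCl2 libraries and 115, 109.7 and 118 CPM in the OD libraries. Its changes were -0.30 ± 0.10 (FDR 0.0099) for CoCl2 and 1.43 ± 0.095 (FDR 9.10e-12) for OD, and CoCl2 less OD was -1.74 ± 0.10, FDR 6.19e-13, the lowest difference of the 39. E2F2, a close relative, was at 8.03, 9.05 and 8.38 CPM in the Control libraries, 14.3, 7.27 and 9.36 CPM in the CoCl2 libraries and 22.6, 20.9 and 27.02 CPM in the OD libraries. For E2F2 the test gave 0.27 ± 0.18 (FDR 0.197) for CoCl2 and 1.47 ± 0.17 (FDR 9.58e-08) for OD, with CoCl2 libraries spread around the Control libraries. UHRF1, which reads hemimethylated DNA behind the fork, was at 12.9, 13.7 and 13.99 CPM in the Control libraries, 15.9, 14.8 and 11.4 CPM in the CoCl2 libraries and 28.6, 31.7 and 37.3 CPM in the OD libraries. That amounts to 0.044 ± 0.13 (FDR 0.787) for CoCl2 and 1.27 ± 0.13 (FDR 1.12e-08) for OD, so that only OD stood apart. CCNE1, a cyclin E that drives CDK2, was at 9.37, 8.92 and 9.21 CPM in the Control libraries, 8.999, 8.79 and 11.4 CPM in the CoCl2 libraries and 20.6, 18.98 and 17.5 CPM in the OD libraries, with changes of 0.10 ± 0.14 (FDR 0.543) for CoCl2 and 1.05 ± 0.13 (FDR 3.51e-07) for OD. CCNE2, the other cyclin E, was at 5.996, 4.03 and 4.71 CPM in the Control libraries, 6.92, 6.68 and 6.60 CPM in the CoCl2 libraries and 11.6, 12.9 and 11.7 CPM in the OD libraries, with changes of 0.44 ± 0.17 (FDR 0.0222) for CoCl2 and 1.29 ± 0.16 (FDR 2.42e-07) for OD.

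Some of the smaller Caco-2 changes crossed the threshold when a single library was left out. RFC4 with CoCl2 did so while its log2 value stayed at -0.24 to -0.21. Of the CoCl2 values, those that no longer passed were CCNE2 (FDR 0.066 to 0.131 without Control replicate 2 or 3), E2F1 (FDR 0.131 without CoCl2 replicate 3), RFC4 (FDR 0.0562 to 0.0716 without CoCl2 replicate 1 or 2 or 3 or Control replicate 1 or 2 or 3), RFC5 (FDR 0.0554 to 0.228 without CoCl2 replicate 3 or Control replicate 1 or 2 or 3) and TYMS (FDR 0.0551 to 0.127 without CoCl2 replicate 1 or 2 or Control replicate 2 or 3). Those that newly passed were E2F2 (FDR 0.0253 without CoCl2 replicate 2), LIG1 (FDR 0.0195 without CoCl2 replicate 3) and MCM10 (FDR 0.0419 without CoCl2 replicate 2). With OD, the test was no longer passed by POLA1 (FDR 0.0873 to 0.125 without Control replicate 1 or OD replicate 2), POLE2 (FDR 0.0511 to 0.0711 without Control replicate 3 or OD replicate 2) and RFC3 (FDR 0.0619 to 0.155 without Control replicate 2 or OD replicate 2), and it was newly passed by POLD1 (FDR 0.00549 without OD replicate 1). In CoCl2 against OD, it was no longer passed by RFC3 (FDR 0.0517 to 0.143 without CoCl2 replicate 1 or 2 or 3 or OD replicate 1 or 2 or 3). The number of genes over 2-fold with OD ran from 13 to 19. CCNE1, GINS2 and POLD3 fell under that limit without some single libraries, while others came over it.

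**Figure D2:**
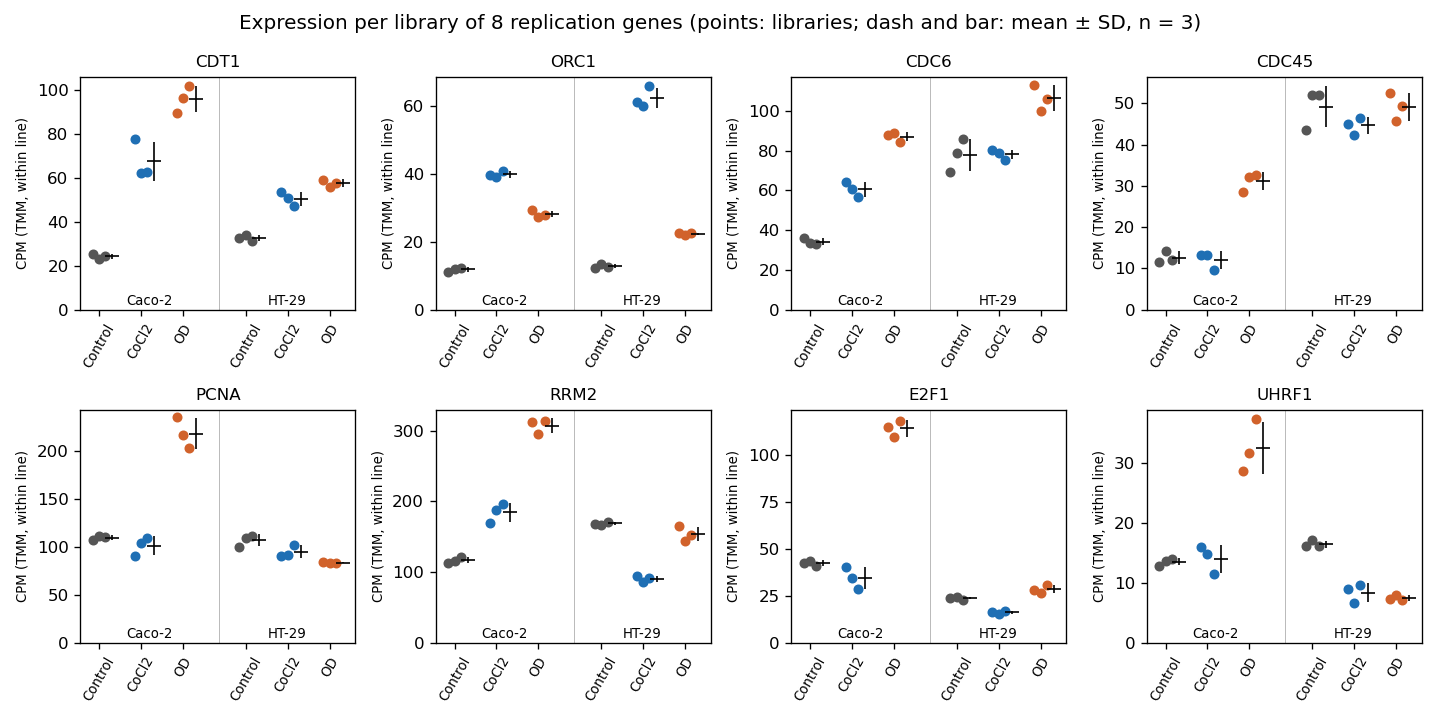
Expression of 8 replication genes (y axes: CPM, TMM-scaled within the line, from 0) in each library of Caco-2 (left of each panel) and HT-29 (right) under Control (grey), CoCl2 (blue) and OD (orange). Points are libraries, and the dash with its bar is the mean ± SD over 3 libraries. OD is highest for all 8 except ORC1 in Caco-2, whereas in HT-29 the means of PCNA, RRM2 and UHRF1 are lower with either agent than in Control.

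In HT-29 more of the 39 genes fell than rose with either agent, GINS4 and POLE2 lowest with CoCl2, E2F2 and UHRF1 lowest with OD, while ORC1 and CDT1 rose with both. With CoCl2, 26 of the 39 fell and 7 rose, against 42.2% and 40.7% of all genes, with a median log2 fold change of -0.38 beside -0.032 for all genes. By over 2-fold, 7 fell and 1 (ORC1) rose, against 23.9% and 17.4% of all genes. Under library size only, 21 fell by as much, against 39.5% of all genes, so that whether the share of large falls among the 39 was below or above that of all genes turned with the scaling. With OD, 18 fell and 9 rose, against 34% and 34.7%, with a median of -0.077 beside 0.0057 for all genes. Large changes with OD were 4 falls and 0 rises, against 7.57% and 9.5% of all genes, shares of the 39 that were not far from those of all genes or below them, and no gene rose over 2-fold at any p. Scaling by library size only lowered the median of all genes by 0.63 with CoCl2 and by 0.14 with OD, and moved the medians of the 39 to -1.01 and -0.21. Of the 7 rises with CoCl2, that of ORC1 alone still passed as a rise under that scaling, and CDC6, MCM2, MCM7, POLD1, POLD3, FEN1, LIG1, RRM1 and CCNE1 then passed as lower. That made 35 falls and 1 rise with CoCl2, against 64.3% and 20.9% of all genes under the same scaling. Of the rises with OD, those of MCM2, POLA2, LIG1 and E2F1 no longer passed under library size only, and ORC6, MCM7, GINS1, POLD3, POLE, RFC5, FEN1 and TK1 newly passed as lower. With OD there were then 26 falls and 5 rises, against 42.8% and 27.4% of all genes. CoCl2 against OD gave 22 lower and 9 higher genes, against 40.6% and 37.1% of all genes, and 3 and 1 over 2-fold, against 19.2% and 10.8%. The median of that comparison was -0.19. Under library size only, MCM5, MCM6, MCM7, GINS3, PCNA and RFC3 no longer passed as higher with CoCl2 than with OD, and UHRF1 and E2F2 were among those that newly passed as lower. The comparison then held 34 lower and 3 higher genes, against 62.9% and 17.9% of all genes.

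Licensing genes of HT-29 went in both directions. With CoCl2 4 of 10 rose and 3 fell, against 40.7% and 42.2% of all genes, so that the share that rose was near that of all genes. With OD 5 rose and 3 fell, against 34.7% and 34%. ORC1 stood at 12.3, 13.4 and 12.6 CPM in the Control libraries, 61.4, 60.2 and 65.8 CPM in the CoCl2 libraries and 22.6, 21.9 and 22.5 CPM in the OD libraries. Its log2 fold changes of 2.29 ± 0.066 (FDR 1.76e-21) for CoCl2 and 0.80 ± 0.072 (FDR 1.93e-10) for OD were the highest and the second highest of the 39 in those comparisons, and CoCl2 was above OD by 1.48 ± 0.062, FDR 1.08e-17. CDT1 was at 32.6, 34.1 and 31.3 CPM in the Control libraries, 53.5, 50.5 and 46.9 CPM in the CoCl2 libraries and 59.1, 55.9 and 57.7 CPM in the OD libraries. It rose by 0.63 ± 0.061 (FDR 3.57e-10) for CoCl2 and 0.82 ± 0.058 (FDR 1.52e-12) for OD, with no overlap, but the CoCl2 value was -0.0049 under library size only. CDC6 was at 69.5, 78.8 and 85.7 CPM in the Control libraries, 80.3, 78.7 and 75.5 CPM in the CoCl2 libraries and 113, 100.1 and 106 CPM in the OD libraries. CDC6 gave -0.0035 ± 0.064 (FDR 0.962) for CoCl2 and 0.44 ± 0.061 (FDR 4.18e-07) for OD, a rise with OD alone. ORC6 was at 26.5, 27.6 and 32.6 CPM in the Control libraries, 46.01, 50.5 and 47.3 CPM in the CoCl2 libraries and 29.3, 28.98 and 27.8 CPM in the OD libraries. It gave 0.72 ± 0.07 (FDR 4.08e-10) for CoCl2 and -0.024 ± 0.071 (FDR 0.784) for OD, with all CoCl2 libraries above the other 6, and under library size only the CoCl2 value was 0.085 and did not pass.

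Within the MCM ring of HT-29 the subunits parted. MCM5 was at 23.5, 22.2 and 19.04 CPM in the Control libraries, 38.8, 34.8 and 38.1 CPM in the CoCl2 libraries and 25.9, 25.6 and 28.3 CPM in the OD libraries. It rose by 0.80 ± 0.077 (FDR 3.26e-10) for CoCl2 and 0.32 ± 0.077 (FDR 7.38e-04) for OD, although under library size only the CoCl2 value was 0.17 and did not pass. MCM2 was at 53.7, 52.3 and 50.4 CPM in the Control libraries, 52.95, 53.4 and 55.7 CPM in the CoCl2 libraries and 60.4, 59.4 and 61.5 CPM in the OD libraries, with changes of 0.053 ± 0.053 (FDR 0.35) for CoCl2 and 0.22 ± 0.051 (FDR 4.74e-04) for OD, so that OD rose slightly, a rise that did not pass under library size only (0.080), and CoCl2 overlapped Control. MCM4 gave -0.88 ± 0.051 (FDR 7.11e-15) for CoCl2 and -0.39 ± 0.049 (FDR 9.77e-08) for OD and was lower in every treated library than in any Control library. MCM3 (-0.41 and -0.26) and MCM6 (-0.21 and -0.44) fell with CoCl2 and OD in that order, and MCM7 passed neither test (0.088 and -0.077). The 6 genes together held 569.7 to 599 CPM in Control, 507 to 542 CPM in CoCl2 and 506 to 538 CPM in OD libraries.

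All 6 genes of helicase activation fell with CoCl2 in HT-29, with a median log2 fold change of -0.84, and 3 fell with OD. Of all genes, 42.2% fell with CoCl2 and 34% with OD. GINS4 was at 4.52, 4.70 and 3.83 CPM in the Control libraries, 0.747, 0.277 and 0.823 CPM in the CoCl2 libraries and 5.12, 3.96 and 3.67 CPM in the OD libraries. The CoCl2 libraries held 10, 4 and 10 counts of GINS4 against 70, 86 and 102 in Control, and the log2 changes were -2.82 ± 0.27 (FDR 3.27e-10) for CoCl2 and -0.011 ± 0.16 (FDR 0.956) for OD. That fall was the largest of the 39 in the line, and the OD libraries overlapped Control. GINS3 was at 8.97, 10.5 and 11.3 CPM in the Control libraries, 8.07, 7.05 and 9.05 CPM in the CoCl2 libraries and 5.17, 4.89 and 5.43 CPM in the OD libraries. It changed by -0.37 ± 0.12 (FDR 0.00526) for CoCl2 and -1.01 ± 0.12 (FDR 3.56e-08) for OD, and here OD was the lower group (CoCl2 less OD 0.63 ± 0.13, FDR 1.27e-04), an order that did not pass under library size only (0.14). CDC45 was at 43.4, 52.00 and 52.04 CPM in the Control libraries, 45.1, 42.4 and 46.5 CPM in the CoCl2 libraries and 52.5, 45.7 and 49.3 CPM in the OD libraries. Its changes of -0.15 ± 0.069 (FDR 0.0499) for CoCl2 and -0.0052 ± 0.065 (FDR 0.949) for OD came with overlap of all 3 groups, and its CoCl2 value no longer passed with DESeq2, with RLE factors or when any of 5 libraries was left out. GINS1 (-0.83 ± 0.074, FDR 7.06e-11), GINS2 (-0.99 ± 0.10, FDR 1.68e-09) and MCM10 (-0.86 ± 0.10, FDR 1.97e-08) fell with CoCl2.

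Among polymerases and primase of HT-29, 5 of 7 fell with CoCl2 and 3 with OD, against 42.2% and 34% of all genes. The share that fell with OD was thus not far from that of all genes. POLE2, the second subunit of polymerase epsilon, was at 10.3, 11.9 and 10.6 CPM in the Control libraries, 1.94, 2.35 and 2.31 CPM in the CoCl2 libraries and 4.86, 5.18 and 5.64 CPM in the OD libraries. It gave -2.31 ± 0.14 (FDR 4.03e-14) for CoCl2 and -1.06 ± 0.11 (FDR 4.00e-09) for OD, the second lowest value of the 39 with CoCl2 and the third lowest with OD. The catalytic subunit POLE changed by -0.24 ± 0.053 (FDR 1.74e-04) for CoCl2 and 0.013 ± 0.051 (FDR 0.84) for OD. For PRIM1 the values were -1.04 ± 0.089 (FDR 3.06e-11) for CoCl2 and -0.66 ± 0.08 (FDR 4.89e-08) for OD. POLA1 gave -0.78 ± 0.078 (FDR 7.95e-10) for CoCl2 and -0.78 ± 0.074 (FDR 6.33e-10) for OD, and for both genes every treated library was under every Control library. POLD1 was at 38.8, 36.7 and 33.8 CPM in the Control libraries, 45.9, 44.7 and 44.04 CPM in the CoCl2 libraries and 59.6, 59.99 and 59.6 CPM in the OD libraries. POLD1 rose by 0.31 ± 0.059 (FDR 3.37e-05) for CoCl2 and 0.72 ± 0.056 (FDR 9.70e-12) for OD, the third highest value with OD, although the CoCl2 value was -0.32 under library size only. POLA2 fell with CoCl2 (-0.38 ± 0.12, FDR 0.00725) and rose with OD (0.34 ± 0.11, FDR 0.00679), the rise not passing under library size only (0.20).

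The clamp loader genes RFC2 to RFC5 all fell with CoCl2 in HT-29, against 42.2% of all genes. Their median log2 fold change was -1.04, and the smallest fall was -0.29. In the whole clamp group of 7 genes, 5 fell and 1 rose with CoCl2, against 42.2% and 40.7% of all genes. With OD 3 fell and 1 rose, against 34% and 34.7%. RFC2 was at 43.96, 48.01 and 47.2 CPM in the Control libraries, 19.7, 18.1 and 18.4 CPM in the CoCl2 libraries and 28.9, 27.2 and 27.5 CPM in the OD libraries. The log2 fold changes of RFC2 were -1.31 ± 0.067 (FDR 5.02e-16) for CoCl2 and -0.74 ± 0.06 (FDR 2.68e-11) for OD, with no overlap. RFC4 was at 33.6, 36.3 and 37.7 CPM in the Control libraries, 14.1, 14.04 and 16.5 CPM in the CoCl2 libraries and 37.8, 36.5 and 36.2 CPM in the OD libraries. RFC4 gave -1.28 ± 0.076 (FDR 1.35e-14) for CoCl2 and 0.034 ± 0.063 (FDR 0.651) for OD, a fall with CoCl2 alone, and RFC5 did likewise (-0.81 ± 0.069, FDR 2.67e-11 with CoCl2, and -0.051 with OD). PCNA was at 99.5, 109 and 112 CPM in the Control libraries, 90.8, 91.2 and 102 CPM in the CoCl2 libraries and 83.97, 82.9 and 82.8 CPM in the OD libraries. Its changes were -0.17 ± 0.055 (FDR 0.00551) for CoCl2 and -0.36 ± 0.054 (FDR 1.79e-06) for OD, small falls beside those of RFC2. LIG1 rose slightly with CoCl2 (0.30 ± 0.064, FDR 1.02e-04) and with OD (0.17 ± 0.062, FDR 0.0161), but its CoCl2 value was -0.33 under library size only and its OD value did not pass with DESeq2 or under library size only (0.037). FEN1 passed neither test (0.11 and 0.0071).

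Nucleotide supply in HT-29 fell with CoCl2 for 3 of 4 genes and with OD for 3 of 4, against 42.2% and 34% of all genes. RRM2 was at 168, 167 and 171 CPM in the Control libraries, 94.2, 85.3 and 91.03 CPM in the CoCl2 libraries and 164, 144 and 152 CPM in the OD libraries. RRM2 changed by -0.91 ± 0.054 (FDR 1.41e-14) for CoCl2 and -0.14 ± 0.051 (FDR 0.0218) for OD, and the highest OD library was just under the lowest Control library. TYMS was at 27.9, 30.9 and 26.8 CPM in the Control libraries, 13.7, 13.97 and 13.9 CPM in the CoCl2 libraries and 22.8, 17.9 and 19.9 CPM in the OD libraries. TYMS gave -1.04 ± 0.089 (FDR 3.05e-11) for CoCl2 and -0.49 ± 0.079 (FDR 4.63e-06) for OD, and the groups did not overlap. TK1 fell with CoCl2 (-0.52 ± 0.062, FDR 2.23e-08) and did not pass with OD (-0.011). RRM1 rose with CoCl2 (0.35 ± 0.047, FDR 1.96e-07), with a value of -0.29 under library size only, and fell with OD (-0.26 ± 0.047, FDR 3.25e-05).

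Of the HT-29 genes of G1/S control and hemimethylated DNA, 4 of 5 fell under CoCl2, against 42.2% of all genes. Under OD 3 fell and E2F1 rose, against 34% and 34.7% of all genes. The rise of E2F1 did not pass the test under library size only (0.14). E2F1 was at 23.8, 24.1 and 22.9 CPM in the Control libraries, 16.2, 15.3 and 16.8 CPM in the CoCl2 libraries and 28.04, 26.5 and 30.9 CPM in the OD libraries. Its changes were -0.55 ± 0.079 (FDR 4.90e-07) for CoCl2 and 0.27 ± 0.069 (FDR 0.00107) for OD, and the 3 groups did not overlap. E2F2 was at 5.94, 5.63 and 5.59 CPM in the Control libraries, 2.54, 2.35 and 2.31 CPM in the CoCl2 libraries and 2.07, 2.21 and 2.61 CPM in the OD libraries. E2F2 gave -1.25 ± 0.16 (FDR 6.09e-08) for CoCl2 and -1.31 ± 0.15 (FDR 1.34e-08) for OD, the lowest value of the 39 with OD, and the CoCl2 and OD libraries overlapped. UHRF1 was at 16.1, 17.1 and 16.2 CPM in the Control libraries, 8.89, 6.64 and 9.55 CPM in the CoCl2 libraries and 7.24, 8.03 and 7.13 CPM in the OD libraries. The values of UHRF1 were -0.99 ± 0.11 (FDR 5.36e-09) for CoCl2 and -1.14 ± 0.10 (FDR 2.97e-10) for OD, and CoCl2 against OD did not pass (CoCl2 less OD 0.15 ± 0.12, FDR 0.26), although it did under library size only (-0.34). CCNE2 was at 6.20, 6.51 and 4.99 CPM in the Control libraries, 2.91, 2.97 and 2.96 CPM in the CoCl2 libraries and 4.29, 4.25 and 3.51 CPM in the OD libraries, with log2 fold changes of -0.98 ± 0.16 (FDR 4.03e-06) for CoCl2 and -0.53 ± 0.14 (FDR 0.00158) for OD. CCNE1 was at 10.00, 11.1 and 10.96 CPM in the Control libraries, 12.4, 10.2 and 11.5 CPM in the CoCl2 libraries and 12.8, 10.2 and 10.8 CPM in the OD libraries, which gave 0.085 ± 0.11 (FDR 0.468) for CoCl2 and 0.075 ± 0.10 (FDR 0.53) for OD, and its 3 groups overlapped.

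Leaving out single libraries moved some small HT-29 changes over the threshold. With CoCl2, CDC45 (FDR 0.0524 to 0.222 without CoCl2 replicate 1 or 2 or 3 or Control replicate 2 or 3) and GINS3 (FDR 0.0582 without CoCl2 replicate 2) no longer passed, and FEN1 (FDR 0.0285 to 0.0356 without CoCl2 replicate 2 or Control replicate 2) and MCM7 (FDR 0.0476 without CoCl2 replicate 2) newly passed. With OD, GINS2 (FDR 0.0574 without OD replicate 3), LIG1 (FDR 0.0517 to 0.229 without Control replicate 3 or OD replicate 1 or 3), MCM10 (FDR 0.075 to 0.204 without Control replicate 2 or OD replicate 2 or 3) and RRM2 (FDR 0.0779 to 0.179 without OD replicate 2 or 3) no longer passed. In CoCl2 against OD, CCNE2 (FDR 0.0514 to 0.0723 without CoCl2 replicate 1 or 2 or OD replicate 1 or 2), MCM3 (FDR 0.101 to 0.104 without CoCl2 replicate 2 or OD replicate 1) and PCNA (FDR 0.0552 without CoCl2 replicate 3) no longer passed, and CDC45 (FDR 0.0218 without OD replicate 2), LIG1 (FDR 0.0287 without CoCl2 replicate 2) and UHRF1 (FDR 0.0273 without CoCl2 replicate 2) newly passed.

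**Figure D3:**
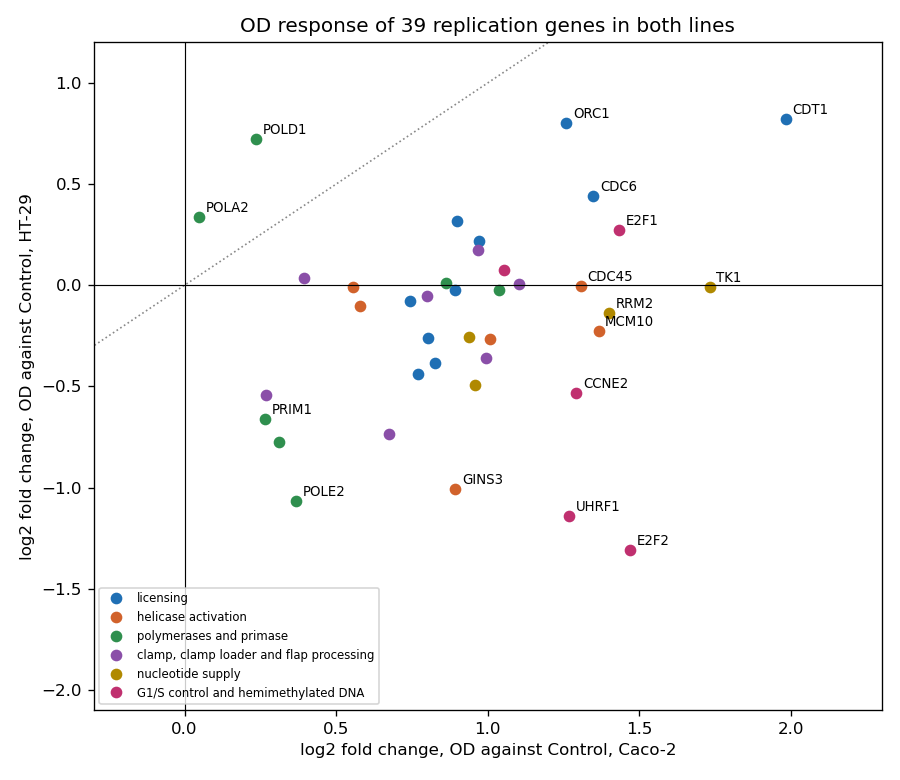
Log2 fold change of each of the 39 genes with OD against Control in Caco-2 (x axis) and HT-29 (y axis), coloured by role. The dotted line marks equal change in both lines. The genes other than POLA2 and POLD1 lie under that line, and E2F2, UHRF1, GINS3 and POLE2 combine a positive value in Caco-2 with one under -1 in HT-29.

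The response to OD differed between the lines for nearly the whole set. In the joint fit of 18 libraries, the OD response of HT-29 less that of Caco-2 was lower for 37 of 39 genes and higher for 1, against 22% and 20.9% of all genes. The median difference was -1.11 on the log2 scale beside 0.011 for all genes. It was below -1 for 22 genes and above 1 for 0, against 6.24% and 8.96% of all genes. Of the 39 genes, 17 rose in Caco-2 and fell in HT-29, and 7 rose in both (ORC1, CDC6, CDT1, MCM2, MCM5, LIG1 and E2F1), against 6.67% and 14.7% of the 13943 genes tested in both lines. The 17 were MCM3, MCM4, MCM6, GINS2, GINS3, MCM10, POLA1, POLE2, PCNA, RFC2, RFC3, RRM1, RRM2, TYMS, CCNE2, E2F2 and UHRF1. The lowest differences were those of E2F2 (-2.80 ± 0.24, FDR 2.33e-11), UHRF1 (-2.43 ± 0.17, FDR 1.67e-13) and GINS3 (-1.91 ± 0.19, FDR 3.46e-10). In Caco-2, GINS3 had risen from 6.58, 8.32 and 9.35 CPM in Control to 15.7, 13.9 and 15.3 CPM in OD libraries, opposite to its fall in HT-29. POLD1 was the single gene with a higher response in HT-29 (0.47 ± 0.13, FDR 0.00441), and for POLA2 the difference did not pass the test (0.27 ± 0.21, FDR 0.306). Among those lower in HT-29, the smallest difference was that of RFC4 (-0.38 ± 0.11, FDR 0.00539), which stood at 30.1, 30.4 and 29.98 CPM in Control and 41.1, 41.6 and 36.1 CPM in OD libraries of Caco-2. By role, the median difference was -1.84 for G1/S control, -1.51 for nucleotide supply, -1.31 for helicase activation, -0.95 for polymerases and primase, -0.93 for licensing and -0.87 for the clamp group. The OD response of the 4 hypoxia genes also differed between the lines, with a median of -2.59. It was lower in HT-29 for 3 and higher for 1, against 22% and 20.9% of all genes. A link with the replication genes was not tested.

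With CoCl2 the difference between the lines had the same sign for most of the set. The response of HT-29 less that of Caco-2 was lower for 27 genes and higher for 3 (ORC1, POLA2 and POLD1), against 28.6% and 21.1% of all genes. Its median was -0.60 beside -0.13 for all genes, and -0.49 with RLE factors, which shifted the median of all genes by 0.10. It was below -1 for 13 genes and above 1 for 0, against 13.8% and 7.79%. The lowest were POLE2 (-2.26 ± 0.19, FDR 6.49e-12), GINS4 (-2.07 ± 0.36, FDR 1.10e-05) and RRM2 (-1.68 ± 0.093, FDR 1.72e-16), and the highest were POLA2 (0.82 ± 0.24, FDR 0.00485), POLD1 (0.77 ± 0.14, FDR 1.74e-05) and ORC1 (0.42 ± 0.12, FDR 0.00268). In Caco-2, POLE2 was at 12.4, 12.9 and 12.1 CPM in Control and 9.67, 11.7 and 11.9 CPM in CoCl2 libraries, a change that did not pass the test. For POLA2, HT-29 had 7.68, 9.68 and 8.52 CPM in Control and 6.12, 7.40 and 6.42 CPM in CoCl2 libraries, a smaller fall than in Caco-2. Scaled by library size only, the ORC1 difference no longer passed, nor did the OD difference of GINS4. CoCl2 raised 5 genes in both lines (ORC1, ORC6, CDT1, MCM5 and RRM1) and lowered 7 in both (MCM4, GINS4, POLA1, POLA2, RFC4, RFC5 and E2F1), against 25.9% and 22.8% of the genes tested in both lines. It raised RRM2, TYMS, TK1 and CCNE2 in Caco-2 while it lowered them in HT-29, and did the opposite for POLD1, against 4.44% and 4.48%. Without single libraries, the OD difference of GINS4 (FDR 0.0775 to 0.132 without Caco-2 Control replicate 2 or 3 or Caco-2 OD replicate 1 or 3 or HT-29 Control replicate 1 or 2 or HT-29 OD replicate 2 or 3) no longer passed, and in the CoCl2 differences E2F1 (FDR 0.0565 to 0.117 without Caco-2 CoCl2 replicate 1 or Caco-2 Control replicate 3 or HT-29 CoCl2 replicate 2) and POLE (FDR 0.0657 to 0.131 without Caco-2 CoCl2 replicate 1 or Caco-2 Control replicate 3 or HT-29 CoCl2 replicate 2 or HT-29 Control replicate 2) no longer passed and GINS3 (FDR 0.024 to 0.0387 without Caco-2 CoCl2 replicate 1 or Caco-2 Control replicate 3 or HT-29 CoCl2 replicate 3 or HT-29 Control replicate 1) and PCNA (FDR 0.0393 without Caco-2 CoCl2 replicate 1) newly passed.

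The lines also differed before treatment. In Control cells, 24 of 39 genes were higher and 7 lower in HT-29 than in differentiated Caco-2, against 39.5% and 39.6% of all genes, with a median difference of 0.31 beside -0.0022 for all genes. Differences over 2-fold numbered 5 higher and 2 lower, against 21.6% and 24.2% of all genes, so that large differences were rarer among the 39 than among all genes. On a common scale of both lines, CDC45 stood at 11.2, 14.02 and 11.9 CPM in Caco-2 Control and 45.01, 54.3 and 54.9 CPM in HT-29 Control libraries (2.06 ± 0.11, FDR 9.92e-19). TK1 stood at 39.3, 44.6 and 46.1 CPM against 118, 124 and 141 CPM (1.57 ± 0.085, FDR 5.11e-18). CDC6 stood at 35.5, 32.6 and 32.6 CPM against 72.04, 82.3 and 90.5 CPM (1.28 ± 0.077, FDR 1.09e-16). These were the highest differences of the 39, and no library of a line overlapped the other line. MCM6 was lower in HT-29, at 46.5, 49.4 and 49.6 CPM against 106, 111 and 112 CPM (-1.18 ± 0.065, FDR 8.52e-18). GINS2 was lower too, at 14.5, 16.2 and 15.9 CPM against 29.96, 32.8 and 31.1 CPM (-1.005 ± 0.09, FDR 4.04e-12). E2F1 (-0.76 ± 0.088, FDR 1.96e-09) and MCM5 (-0.76 ± 0.083, FDR 4.61e-10) were next lowest. PCNA (0.051 ± 0.071, FDR 0.516) and MCM2 (0.076 ± 0.075, FDR 0.354) did not pass the test. Without single libraries, CCNE1 (FDR 0.0537 to 0.0593 without Caco-2 Control replicate 2 or HT-29 Control replicate 3), CCNE2 (FDR 0.0974 to 0.251 without Caco-2 Control replicate 2 or 3 or HT-29 Control replicate 1 or 2), ORC1 (FDR 0.0529 to 0.161 without Caco-2 Control replicate 1 or 2 or HT-29 Control replicate 2 or 3) and RFC5 (FDR 0.0554 to 0.0899 without Caco-2 Control replicate 1 or 2 or 3 or HT-29 Control replicate 2 or 3) no longer passed.

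Levels between genes were compared per length on the deposited log2(RPKM + 1) scale, where RPKM is a read count scaled to gene length and library size, within each line. In Caco-2 Control, PCNA was highest (6.33 ± 0.034, SD, n = 3), followed by MCM3 (5.22 ± 0.021), MCM7 (5.08 ± 0.092), MCM6 (4.84 ± 0.037) and RRM1 (4.81 ± 0.053), of which MCM6 and RRM1 did not differ beyond their spread. CCNE2 (1.09 ± 0.15), POLA2 (1.12 ± 0.042), GINS4 (1.17 ± 0.084) and E2F2 (1.37 ± 0.054) were lowest, and CCNE2, POLA2 and GINS4 did not differ beyond their spread. GINS3 (1.38 ± 0.16) came next and did not differ from E2F2 beyond that spread. In HT-29 Control, the order began with PCNA (6.31 ± 0.085), TK1 (6.11 ± 0.12), RRM1 (5.79 ± 0.063) and MCM7 (5.78 ± 0.04). PCNA and TK1 did not differ clearly beyond their spread, and RRM1 and MCM7 did not differ beyond theirs. It ended with POLA2 (1.37 ± 0.10), CCNE2 (1.25 ± 0.12) and E2F2 (1.06 ± 0.024), of which POLA2 and CCNE2 did not differ beyond their spread, while GINS4 is listed at 0 in HT-29 in that table although it had counts in every library.

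**Figure D4:**
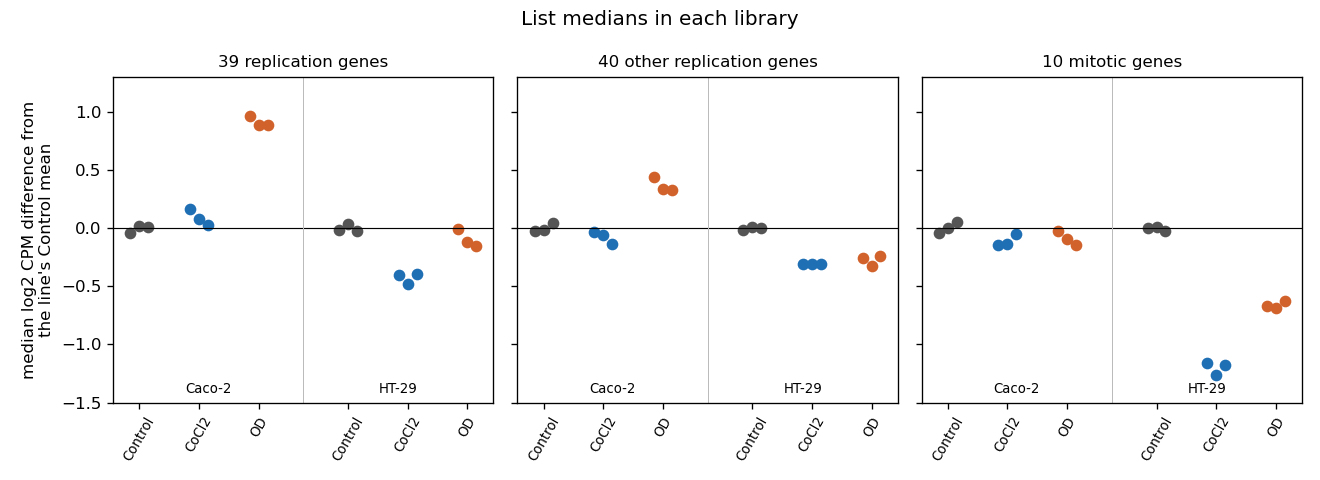
Median over the genes of a list of the log2 CPM difference from the mean of the line's Control libraries (y axis), for each library of Caco-2 and HT-29 under Control (grey), CoCl2 (blue) and OD (orange). The panels hold the 39 genes, 40 other replication genes and 10 mitotic genes, and points are libraries. In Caco-2 OD libraries the 39 genes lie at 0.89 to 0.97 and the mitotic genes at -0.14 to -0.023, and in HT-29 CoCl2 libraries the mitotic genes lie at -1.26 to -1.16.

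Most other genes of the process rose with OD in Caco-2 and fell in HT-29. Of 41 other replication genes (further ORC, RPA, polymerase, checkpoint and chromatin assembly genes), 40 were tested, and RNASEH2A had too few counts. With OD in Caco-2, 28 rose and 3 fell, against 25.7% and 24.7% of all genes, with a median log2 fold change of 0.38, the highest over 2-fold being the histone chaperone subunit CHAF1A (1.42 ± 0.089, FDR 3.25e-12) and the checkpoint gene CLSPN (1.28 ± 0.11, FDR 1.40e-09). With CoCl2 in Caco-2, 11 rose and 14 fell (median -0.11), against 31.6% and 33.1% of all genes. In HT-29, 6 rose and 26 fell with CoCl2 (median -0.34), against 40.7% and 42.2% of all genes, and TIPIN of the fork protection complex was among those that fell by over 2-fold (-2.03 ± 0.13, FDR 9.59e-14). With OD in HT-29, 4 rose and 27 fell (median -0.27), against 34.7% and 34% of all genes, the lowest being the ORC subunit ORC5 (-1.45 ± 0.069, FDR 3.85e-16).

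The regulators of RB, E2F and cyclin-dependent kinases were 22 genes. With OD in Caco-2, 10 rose and 4 fell, beside 25.7% and 24.7% of all genes, led by the repressor E2F7 (1.58 ± 0.12, FDR 1.09e-10) and cyclin D1, CCND1 (1.39 ± 0.075, FDR 1.82e-13). With CoCl2 in Caco-2, 10 rose and 9 fell, beside 31.6% and 33.1%, led by CDKN2D (1.42 ± 0.22, FDR 5.10e-06), an inhibitor of CDK4 and CDK6, and E2F6 (1.33 ± 0.11, FDR 2.06e-10). In HT-29, of 21 tested, 8 rose and 11 fell with CoCl2, beside 40.7% and 42.2% of all genes, so that the share of the list that rose was near that of all genes. The extremes there were CDKN1A, the CDK inhibitor p21, at the top (1.85 ± 0.081, FDR 1.43e-17) and E2F8 (-2.55 ± 0.11, FDR 1.14e-17) and CCND1 (-2.52 ± 0.072, FDR 1.21e-21) at the bottom. With OD in HT-29, 7 rose and 12 fell, beside 34.7% and 34%, and CDKN1A was again highest (1.73 ± 0.08, FDR 2.35e-16). The CoCl2 response of CCND1 differed between the lines by -3.86 ± 0.11, FDR 2.83e-24, and its OD response by -2.29 ± 0.10, FDR 2.31e-19.

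Of 10 mitotic genes, among them the cyclin CCNB1 and the kinases CDK1 and PLK1, 3 rose and 4 fell with OD in Caco-2, where 25.7% and 24.7% of all genes did so, with a median log2 fold change of -0.082. The single fall over 2-fold was that of CCNB1 (-1.04 ± 0.086, FDR 5.21e-10). With CoCl2 in Caco-2, 0 rose and 3 fell (median -0.082), where 31.6% and 33.1% of all genes did so. All 10 fell with CoCl2 in HT-29 (median -1.22), as did 42.2% of all genes, lowest CENPA (-2.42 ± 0.11, FDR 9.68e-17) and PLK1 (-1.59 ± 0.069, FDR 1.56e-17). With OD in HT-29, 8 fell and 0 rose (median -0.65), against 34% and 34.7% of all genes, lowest CCNB1 (-1.41 ± 0.055, FDR 6.59e-18) and AURKA (-1.29 ± 0.054, FDR 3.52e-17). In Control cells, all 10 were higher in HT-29 (median difference 1.14), as were 39.5% of all genes, a larger median than that of the 39 replication genes, a difference between lists that was not tested.

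Genes with the E2F word in the promoter and genes without it had wide and overlapping responses. With OD in Caco-2, the median log2 fold change was 0.93 for the 20 genes with the word and 1.00 for the 14 without it. With CoCl2 in HT-29, the medians were -0.37 and -0.33, and with OD in HT-29 they were -0.26 and -0.017. These medians are given as a description with no test.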

How the data were processed

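Human Caco-2 and HT-29 cells were profiled by mRNA sequencing (18 libraries, single-end reads, stranded kit), and miRNA libraries were not used here. The deposited counts are whole read counts per gene. Per the labels and the study's methods, the authors trimmed reads with cutadapt 2.10, checked them with FastQC 0.11.9 and aligned them with STAR 2.7.5b to GRCh38.p13, and the counting tool and its strand setting are not given in the sources used here. The authors' processing notes also name edgeR 3.30.3 and Bowtie 1.1.1. The deposited log2 values are log2(RPKM + 1) per gene, scaled within each cell line, in which genes under the authors' filter stand at 0. They were used for levels per length and for 1 alternative test.

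Rows were matched to the 39 symbols. Groups came from the sample titles. Counts were filtered with filterByExpr, scaled by TMM and fitted with edgeR 4.0.16 (R 4.3.3), with 1 coefficient per group, over the 9 libraries of a line, or over all 18 for differences between lines. Two-sided quasi-likelihood F tests were used, and p-values were adjusted after Benjamini and Hochberg over all genes tested. A gene passed at an FDR under 0.05, and an absolute log2 fold change over 1 was counted apart as over 2-fold. The SE of a log2 fold change is its size divided by the square root of F. CPM are TMM-scaled within the line unless a common scale is named. The fits were tested on simulated data beforehand.

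The study analysed its counts with DESeq2, which is an alternative here (1.42.0), beside RLE factors, library size only, no filter on low counts, the replicate number as a block, each library left out and limma-trend (limma 3.58.1). The members and the other gene lists were chosen with earlier results of these data known. All 39 genes could be named. Values per library were given for a fixed set of members and for the 3 highest and 3 lowest of each comparison, and of other lists at most the 2 highest and 2 lowest genes over 2-fold were named per comparison, beside the hypoxia and marker checks. A gene of these lists is not reported here. Depth of 12925719 to 22332639 counts per library left GINS4, POLA2, E2F2 and CCNE2 with the fewest counts and the widest errors.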

Additional observations from a re-analysis of the deposited data

Results flagged for a closer look

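The response to an agent differed between the lines by over 2-fold, in the joint test of the difference (edgeR's quasi-likelihood F test, FDR under 0.05), for the genes given here, each with the log2 response of HT-29 less that of Caco-2. No value was positive, and how far the 21-day culture of Caco-2 contributes cannot be told apart from the cell line.

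With OD, the regulators of G1/S and UHRF1 differed by -2.80 (E2F2), -2.43 (UHRF1), -1.84 (CCNE2) and -1.18 (E2F1). Helicase genes differed by -1.91 (GINS3), -1.61 (MCM10), -1.33 (CDC45) and -1.29 (GINS2). The genes of nucleotide supply differed by -1.76 (TK1), -1.55 (RRM2), -1.47 (TYMS) and -1.21 (RRM1). Licensing genes differed by -1.23 (MCM4), -1.23 (MCM6), -1.18 (CDT1) and -1.08 (MCM3). The clamp group differed by -1.43 (RFC2), -1.37 (PCNA) and -1.11 (FEN1), and polymerase genes by -1.45 (POLE2), -1.11 (POLA1) and -1.08 (POLD3).

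With CoCl2, POLE2 differed by -2.26 and PRIM1 by -1.37. Helicase genes differed by -2.07 (GINS4), -1.23 (GINS2) and -1.17 (MCM10). The genes of nucleotide supply differed by -1.68 (RRM2), -1.43 (TYMS) and -1.12 (TK1). G1/S genes and UHRF1 differed by -1.62 (E2F2), -1.53 (CCNE2) and -1.13 (UHRF1), and the loader by -1.36 (RFC2) and -1.15 (RFC4).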

How the results depend on the processing

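The direction of the median of the 39 genes held under every alternative run except 1. With library size only the median log2 values were -0.22 (CoCl2 in Caco-2, against 0.10, the exception), 0.78 (OD in Caco-2), -0.98 (CoCl2 less OD in Caco-2), -1.01 (CoCl2 in HT-29), -0.21 (OD in HT-29), -0.69 (CoCl2 less OD in HT-29) and -0.80 (difference of CoCl2 responses). The median of all genes moved too, by -0.32, -0.15, -0.17, -0.63, -0.14, -0.50 and -0.20. DESeq2 and RLE factors gave -0.49 and -0.49 for the difference of CoCl2 responses, and 0.24 and 0.24 for the Control difference. Limma-trend on the deposited log2 values gave 0.81 (OD in Caco-2), -0.68 (CoCl2 less OD in Caco-2) and -0.32 (CoCl2 in HT-29), and no filter on low counts gave -0.43 for the last. With single libraries left out, the medians ran from 0.86 to 0.97 for OD in Caco-2 and from -0.44 to -0.37 for CoCl2 in HT-29. They moved by over 1.5 times for CoCl2 in Caco-2, from 0.033 without CoCl2 replicate 1 to 0.15 without CoCl2 replicate 2 (0.10 with all), and for OD in HT-29, from -0.15 without OD replicate 1 to -0.037 without OD replicate 2 and -0.046 without OD replicate 3 (-0.077 with all).

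The number of the 39 genes over 2-fold with library size only was 5 for CoCl2 in Caco-2 (against 3, and 27.5% of all genes), 22 for CoCl2 in HT-29 (against 8, and 47.7%) and 13 for CoCl2 against OD in HT-29 (against 4, and 38.3%). Limma-trend gave 7 (CoCl2 against OD in Caco-2, against 13), 5 (CoCl2 in HT-29), 2 (CoCl2 against OD in HT-29) and 0 (OD in HT-29), where edgeR gave 4 and DESeq2 4 and no value in limma-trend reached 2-fold at any p. Adding 1 to RPKM shrinks the changes of low genes in that alternative. Its HT-29 counts and medians also leave out GINS4, which stands at 0 in the deposited HT-29 values. Without a limit on fold change, the counts were 21, 36 and 36 in Caco-2 (CoCl2, OD, CoCl2 against OD), 33, 27 and 31 in HT-29, 30 and 38 for the differences of the CoCl2 and OD responses, and 31 for the Control difference. Other alternatives kept each count within 1.5 times of its value. Where not stated, the cause was not tested.

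With library size only, the log2 values with the other sign were CCNE1 -0.22, E2F2 -0.056, MCM3 -0.24, MCM6 -0.18, MCM7 -0.030, PRIM1 -0.10, TYMS -0.042, UHRF1 -0.28 (CoCl2 in Caco-2), and CCNE1 -0.55, CDT1 -0.0049, FEN1 -0.52, LIG1 -0.33, MCM2 -0.58, MCM7 -0.55, POLD1 -0.32, RRM1 -0.29 (CoCl2 in HT-29), and CCNE1 -0.062, FEN1 -0.13, POLE -0.12, RFC4 -0.10 (OD in HT-29), and POLA2 -0.11 (OD in Caco-2), and UHRF1 -0.34 (CoCl2 less OD in HT-29). With DESeq2, the log2 values with the other sign were CDC6 0.0040 (CoCl2 in HT-29), and FEN1 -0.012, POLE -0.0079 (OD in HT-29), and PCNA -0.021 (Control difference). With RLE factors, the log2 values with the other sign were CDC6 0.0020 (CoCl2 in HT-29), and FEN1 -0.013, POLE -0.0077 (OD in HT-29), and PCNA -0.021 (Control difference). With limma-trend, the log2 values with the other sign were CCNE1 -0.00080, MCM2 -0.037, MCM7 -0.0046 (CoCl2 in HT-29), and FEN1 -0.010, POLE -0.010 (OD in HT-29), and POLA2 -0.0020 (OD in Caco-2). With no filter on low counts, the log2 values with the other sign were MCM2 -0.0038 (CoCl2 in HT-29). With a library left out, values that took both signs ranged as follows: CCNE1 -0.041 to 0.18, CDC45 -0.16 to 0.081, E2F2 -0.0094 to 0.46, UHRF1 -0.048 to 0.19 (CoCl2 in Caco-2), and CCNE1 -0.032 to 0.14, CDC45 -0.082 to 0.050, FEN1 -0.061 to 0.057, GINS4 -0.18 to 0.090, ORC6 -0.082 to 0.082, POLE -0.037 to 0.059, RFC4 -0.010 to 0.072, TK1 -0.060 to 0.060 (OD in HT-29), and CDC6 -0.082 to 0.071 (CoCl2 in HT-29), and ORC6 -0.11 to 0.057 (CoCl2 less OD in Caco-2), and POLA2 -0.14 to 0.18 (OD in Caco-2). Most of these values did not pass the test in the first place, and those that did (CDT1, LIG1, POLD1 and RRM1 with CoCl2 in HT-29, TYMS and MCM7 with CoCl2 in Caco-2) are named in the results.

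Replicate numbers did not pair the libraries: deviations of same-numbered libraries from their group means correlated at -0.055 to 0.068 in Caco-2 and -0.037 to 0.025 in HT-29. With the replicate block, 3 genes were over 2-fold for OD in HT-29 (against 4) and 23 for the difference of OD responses (against 22), and the other counts were equal. CDC45 with CoCl2 in HT-29 no longer passed under the block. Values under about 10 CPM, as of GINS4, POLA2, E2F2 and CCNE2, rest on few reads. The same holds for GINS3 in Caco-2 Control and treated HT-29 libraries, and for POLE2 and UHRF1 in treated HT-29 libraries.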
